A study of Mus musculus with 8 samples.

Results

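The genes described here are the molecular chaperones, heat shock proteins and proteasome subunits of a table of 5457 mouse genes. They were taken by gene symbol, as the Hsp, Dnaja to Dnajc, Cct, Bag, Psm, Ahsa and Pdia families, with the proteoglycan gene Hspg2 left out. This gave 53 genes, of which 5 encode small heat shock proteins, 10 proteasome subunits or activators, 19 cytosolic chaperones and co-chaperones, 4 mitochondrial and 12 endoplasmic reticulum proteins. Dnajc4 was given no compartment, and Hspbap1 and Psmc3ip share the names but are neither chaperones nor proteasome subunits. RNA had been sequenced from 8 libraries of cells that carried the tdTomato label, had been sorted from the hind limb muscle of C57BL/6 adults and were cultured on Matrigel, in 4 groups of 2. Tw2_48 and Tw2_GM came from Tw2-CreERT2/+;R26-tdTO+ mice, and Pax7_48 and Pax7_GM from Pax7-CreERT2/+;R26-tdTO+ mice. All mice received tamoxifen to switch on the label, so that labelled cells had expressed the Cre driver or descended from cells that had. GM stands for growth medium; the Tw2 titles give 48 in hours, and neither the unit in the Pax7 titles nor the medium of the 48 cultures is stated. The labels name a low-serum medium used for differentiation, and do not say how many mice contributed to a library.

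Molecular chaperones bind unfolded proteins and hold or refold them. Hsp70 proteins work with J proteins (the Dnaj families), which deliver clients and start ATP hydrolysis, and with nucleotide exchange factors such as the Bag and Hsp110 proteins. Hsp90 matures kinases and hormone receptors, the ring-shaped TRiC complex folds actin and tubulin, and Hsp60 with Hsp10 folds proteins imported into mitochondria. Small heat shock proteins keep damaged proteins soluble without ATP, and several of them are abundant in muscle, where they associate with the sarcomere and the cytoskeleton. The proteasome is a barrel-shaped protease, the 20S core, capped by a 19S particle that recognises and unfolds ubiquitin-tagged proteins, or by activators such as PA28 and PA200. Heat shock factors bind repeats of GAA and its complement TTC in the promoters of many of these genes.

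The promoters of 3 small heat shock genes and of the mitochondrial chaperonin gene Hspd1 are shown because the levels of the 3 small heat shock genes and of Hspd1 moved in opposite directions between the 48 and GM cultures. Each is the 250 bases before a RefSeq gene start (GRCm38.p6), read 5′ to 3′ along the gene. The Hspb1 window is chr5:135887669-135887918 (+), the Hspb3 window chr13:113663677-113663926 (-), the Hspb7 window chr4:141420529-141420778 (+) and the Hspd1 window chr1:55087933-55088182 (-). Capitals mark heat shock element pairs (GAANNTTC or TTCNNGAA, each of which reads the same on both strands) and, at the end of the Hspb3 window, the MEF2 box.
Hspb1 promoter: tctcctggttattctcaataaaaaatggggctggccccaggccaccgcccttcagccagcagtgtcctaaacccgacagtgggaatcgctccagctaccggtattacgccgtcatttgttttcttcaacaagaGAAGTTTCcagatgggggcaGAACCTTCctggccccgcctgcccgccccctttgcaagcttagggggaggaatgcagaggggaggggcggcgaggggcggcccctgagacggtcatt
Hspb3 promoter: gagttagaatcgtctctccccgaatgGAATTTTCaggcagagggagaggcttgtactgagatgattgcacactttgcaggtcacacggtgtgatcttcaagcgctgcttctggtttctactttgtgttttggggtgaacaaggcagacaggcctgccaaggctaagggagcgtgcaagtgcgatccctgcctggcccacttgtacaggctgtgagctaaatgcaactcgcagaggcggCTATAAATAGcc
Hspb7 promoter: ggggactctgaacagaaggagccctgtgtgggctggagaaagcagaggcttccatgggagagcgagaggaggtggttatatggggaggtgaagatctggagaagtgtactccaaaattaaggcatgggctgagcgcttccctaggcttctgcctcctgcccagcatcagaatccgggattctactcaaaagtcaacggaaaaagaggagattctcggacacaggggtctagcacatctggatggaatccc
Hspd1 promoter: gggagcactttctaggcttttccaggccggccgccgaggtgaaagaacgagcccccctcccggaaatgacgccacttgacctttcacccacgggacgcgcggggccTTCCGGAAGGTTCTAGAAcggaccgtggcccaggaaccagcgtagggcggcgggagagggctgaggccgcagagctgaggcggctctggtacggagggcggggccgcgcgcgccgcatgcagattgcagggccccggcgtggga
Hspb1 held head-to-head pairs (GAANNTTC) whose first bases lay 117 and 97 bases before the start. Hspb3 held a single such pair 224 bases before its start, and a MEF2 box, the binding motif of the MEF2 muscle factors, 12 bases before it; that box overlaps a TATA box (TATAAA) 11 bases before the start. Hspb7 held none of these motifs in its window. Hspb8, which also rose at 48, held none either, and its window (chr5:116422865-116423114, -) is not shown. In Hspd1 a head-to-head pair and a pair of tail-to-tail pairs (TTCNNGAA) overlapped between 144 and 134 bases before the start. The neighbouring gene Hspe1 is transcribed the other way, and its window (chr1:55087898-55088147, +) holds the same letters 89 to 79 bases before its own start. Among the 43 members with a window in the RefSeq table, GAANNTTC was found in 7 (Dnaja1, Dnaja4, Hspb1, Hspb3, Hspd1, Hspe1 and Psmb5) and TTCNNGAA in 5 (Dnajb4, Dnajc10, Hspd1, Hspe1 and Psmd4). Over all 32851 windows of that table the shares were 6.69% and 7.17%, beside 13.0% (7) and 9.26% (5) of the members' 54 windows, and for the MEF2 box and the TATA box 2.92% and 12.4%. These matches describe letters only. Hspd1 has another RefSeq start further upstream, whose window holds none of the heat shock pairs; the window shown lies within the annotated gene.

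Values are CPM (reads scaled to library size); in each group the deeper library is given before the shallower one. Implied library sizes ran from 5.18 to 13.7 M reads, with Pax7_GM the shallowest at 7.38 and 5.18 M. The Pax7_GM libraries stood apart from each other: the SD of their log2 ratio over all genes was 0.498, against 0.169 to 0.196 in the other groups. The table lists only genes whose authors' mean differed at least 2-fold from Tw2_GM in some other group. The mouse annotation holds 145 protein-coding symbols that fit the same name rule, so the other 92 were not analysed here. Exons of 25 members overlap those of another gene and 6 members have pseudogenes named for them, so that their reads may not all be their own. A gene was called at a Benjamini-Hochberg adjusted p under 0.05 in limma, over 5452 genes. The labels do not say that the 2 libraries of a group came from separate mice or cultures, so p-values measure only the spread between these libraries. In bulk RNA, fewer cells of a type and less RNA per cell cannot be told apart.

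Of the 53 members, 26 were higher and 16 lower in Tw2_48 than in Tw2_GM by limma, and the median log2 fold change was 0.56. Among all listed genes 84.1% were called there, 35.3% higher and 48.9% lower, and the median was -0.49. In Pax7_48 against Pax7_GM, 31 members were higher and 14 lower (of all listed genes 79.2% were called, 38.8% higher and 40.5% lower), with a median of 0.67 against 0.01 over all genes. Of the members called higher, 24 were shared by the 2 lineages, which is 92.3% of the Tw2 list and 77.4% of the Pax7 list. Another 12 were lower in both, and 0 were called in opposite directions. Between the lineages, 26 members were higher and 6 lower in Tw2_48 than in Pax7_48 (of all listed genes 65.4% were called, 43.3% higher and 22.1% lower), and 21 were higher and 18 lower in Tw2_GM than in Pax7_GM (of all listed genes 74.7% were called, 48.7% higher and 26% lower). The members' lineage medians were 0.37 at 48 and 0.15 in GM, against 0.27 and 0.34 over all genes. Because listing required a difference from Tw2_GM, the shares called in comparisons with that group are high for any list.

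The balance between higher and lower members depended on the scaling in the lineage comparisons, as did that of all listed genes. Median-ratio size factors gave 13 higher and 26 lower in Tw2_48 than in Pax7_48 and 14 and 30 in Tw2_GM against Pax7_GM. Quantile normalization gave 21 and 16 at 48 and 18 and 27 in GM, and removing the trend of each library with GC content and transcript length gave 36 and 3 at 48 and 35 and 11 in GM. These moved the median of all genes by -0.63, -0.29 and 0.04 at 48 and by -0.84, -0.48 and 0.19 in GM, in that order of methods. Without these methods, 66.2% of all listed genes called were higher in Tw2 cells at 48 and 65.2% in GM. With them the share was 26.4%, 48.4% and 78.1% at 48 and 32.1%, 47.2% and 80.9% in GM. For 48 over GM the members' splits in Tw2 cells were 28 and 10, 27 and 16, and 26 and 14. In Pax7 cells they were 32 and 14, 26 and 14, and 30 and 14. The median of all genes shifted by 0.20 to 0.45 in Tw2 cells and by -0.05 to 0.24 in Pax7 cells. Of all listed genes called, 49.7%, 45.4% and 42.5% were higher in Tw2 cells, against 41.9% without these methods. In Pax7 cells the shares were 54.6%, 51.8% and 48.7%, against 48.9%.

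**Figure D1:**
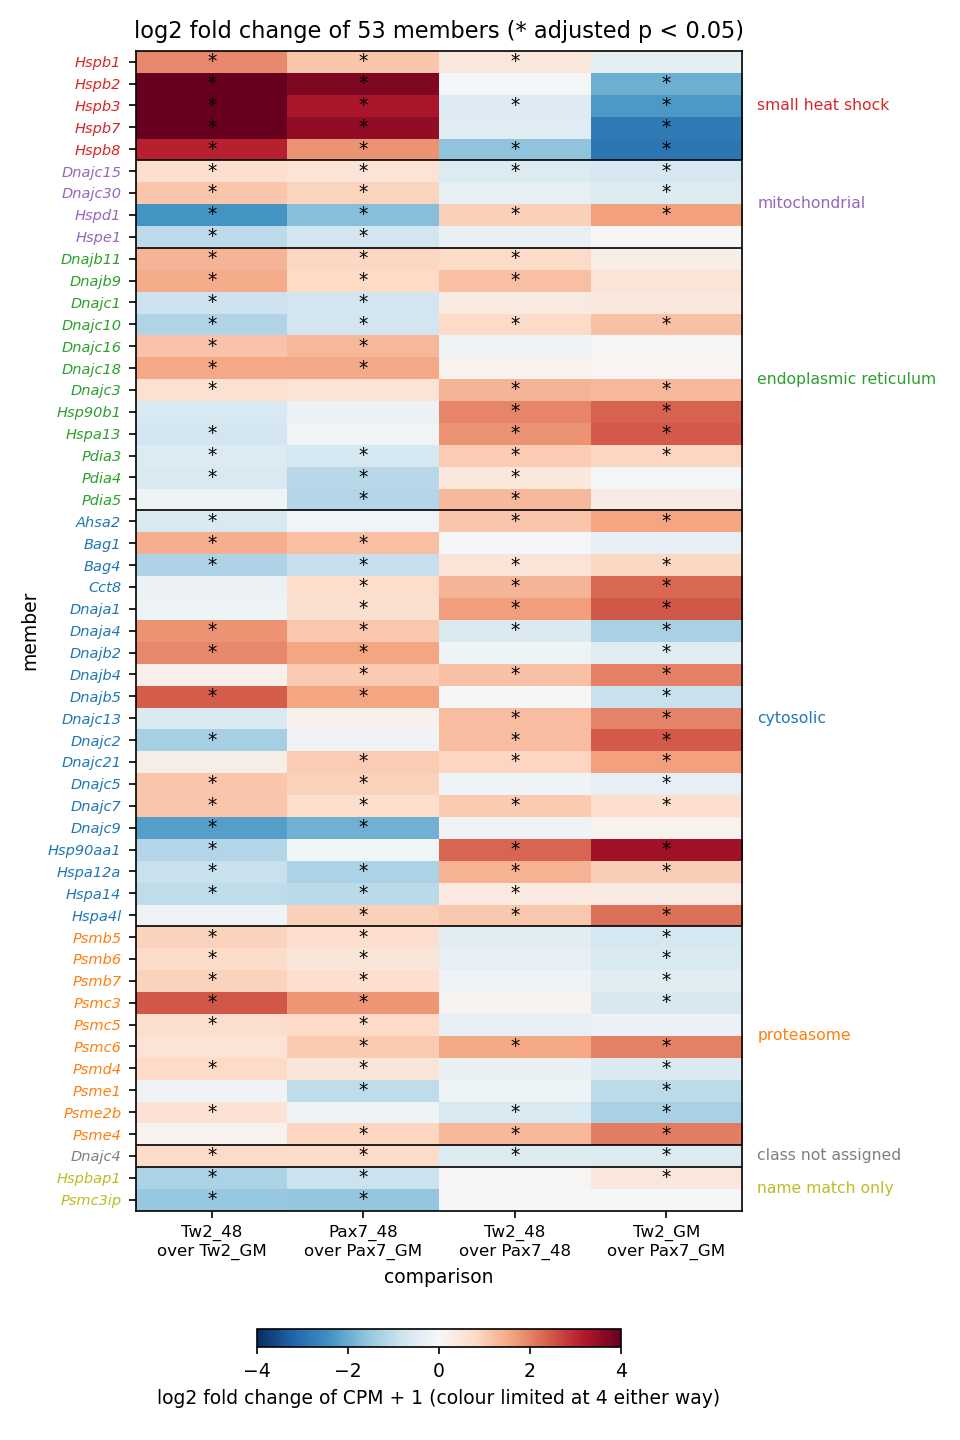
Log2 fold change of CPM + 1 for the 53 members (rows, grouped by class) in 4 comparisons (columns), with asterisks at limma adjusted p under 0.05. The small heat shock genes are red in both columns of 48 over GM, while Hsp90aa1, Dnaja1 and Dnajc2 are red in the columns of Tw2 over Pax7; several proteasome members are blue in the GM lineage column and turned positive when the GC content and length trend was removed.

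The largest changes were among the small heat shock genes. All 5 listed members (Hspb1, Hspb2, Hspb3, Hspb7 and Hspb8) were higher at 48 than in GM in both lineages (median log2 fold change 5.05 in Tw2 and 3.27 in Pax7 cells), and this held for all 5 under median-ratio size factors, under quantile normalization and with the GC content and length trend removed. Their summed level was 1136 and 1217 CPM in Tw2_48 beside 1978 and 1915 CPM in Pax7_48, against 126 and 139 CPM in Tw2_GM, with 536 and 430 CPM in Pax7_GM. The growth-medium level was thus lowest in Tw2 cells, in every library.

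Hspb2 (chr9:50751078-50752354, GRCm38, - strand), a muscle protein that binds the myotonic dystrophy kinase, had 318 and 354 CPM in Tw2_48 beside 324 and 375 CPM in Pax7_48. In Tw2_GM it had 5.50 and 5.84 CPM, and in Pax7_GM 23.6 and 26.6 CPM. The GM libraries lay far below all 48 libraries, and Tw2_GM below Pax7_GM, while the 48 cultures of the 2 lineages overlapped. Its mean was 59.2-fold higher in Tw2_48 than in Tw2_GM (log2 fold change of CPM + 1 5.66 ± 0.14 SE, limma adjusted p = 1.45e-08) and 13.9-fold higher in Pax7_48 than in Pax7_GM (3.75 ± 0.14, adjusted p = 2.33e-07). Its exons overlap those of the neighbouring gene Cryab, and whether counting used strand is not stated.

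Hspb3 (chr13:113662896-113663676, -), which forms a complex with Hspb2 in muscle, had 48.1 and 56.0 CPM in Tw2_48 beside 79.0 and 70.0 CPM in Pax7_48. Its level was 0.657 and 0.531 CPM in Tw2_GM, which is 8 and 6 reads, and 7.04 and 6.56 CPM in Pax7_GM. No 2 groups overlapped, and the order was Pax7_48, Tw2_48, Pax7_GM and Tw2_GM. The mean was 87.5-fold higher in Tw2_48 than in Tw2_GM (log2 fold change 5.05 ± 0.14 SE, limma adjusted p = 2.04e-08) and 10.96-fold higher in Pax7_48 than in Pax7_GM (3.27 ± 0.14, adjusted p = 3.2e-07). The log2 values understate such changes, since 1 CPM was added before taking the log.

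Hspb7 (chr4:141420779-141425311, +), a small heat shock protein of heart and muscle that binds filamin C, had 100.7 and 100.03 CPM in Tw2_48 beside 140.5 and 139.6 CPM in Pax7_48. In Tw2_GM it stood at 1.15 and 0.354 CPM (14 and 4 reads), and in Pax7_GM at 10.3 and 12.2 CPM. Again no 2 groups overlapped and Tw2_GM was lowest. The mean was 133-fold higher in Tw2_48 than in Tw2_GM (5.89 ± 0.21, limma adjusted p = 5.43e-08) and 12.5-fold higher in Pax7_48 than in Pax7_GM (3.53 ± 0.21, adjusted p = 1.38e-06).

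Hspb8 (chr5:116408491-116422864, -), which works with Bag3 to hand damaged sarcomere proteins to autophagy, was the small heat shock gene with the largest lineage difference at 48. It had 371 and 381 CPM in Tw2_48 against 1207 and 1103 CPM in Pax7_48, and 42.5 and 45.2 CPM in Tw2_GM against 381 and 289 CPM in Pax7_GM. Its level in Tw2_48 was therefore like that of the deeper Pax7_GM library. The mean was 8.58-fold higher in Tw2_48 than in Tw2_GM and 3.45-fold higher in Pax7_48 than in Pax7_GM. Tw2 cells had less of it at 48 (log2 fold change -1.61 ± 0.16 SE, limma adjusted p = 0.000263) and in GM (-2.89 ± 0.16, adjusted p = 7.51e-06), and both stayed negative under the other scalings and with the GC content and length trend removed (-0.94 and -1.88).

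Hspb1 (chr5:135887919-135889563, +) encodes Hsp27, which binds actin filaments. It had 298 and 326 CPM in Tw2_48, 228 and 227 CPM in Pax7_48, 75.9 and 87.2 CPM in Tw2_GM, with 114 and 95.1 CPM in Pax7_GM. The 48 libraries were all above the GM libraries, by 3.82-fold in Tw2 and 2.17-fold in Pax7 cells (log2 fold change 1.92 ± 0.15 SE, adjusted p = 3.86e-06, and 1.12 ± 0.15, adjusted p = 0.000134, limma). Unlike the other 4, its mean at 48 was higher in Tw2 than in Pax7 cells (0.45 ± 0.15, adjusted p = 0.0247), a value that became -0.20 under median-ratio size factors and 0.24 under quantile normalization, neither called. With the GC content and length trend removed the 48 lineage values of Hspb2, Hspb3 and Hspb7, which were -0.05, -0.51 and -0.48, turned to 0.90, 0.33 and 0.13.

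**Figure D2:**
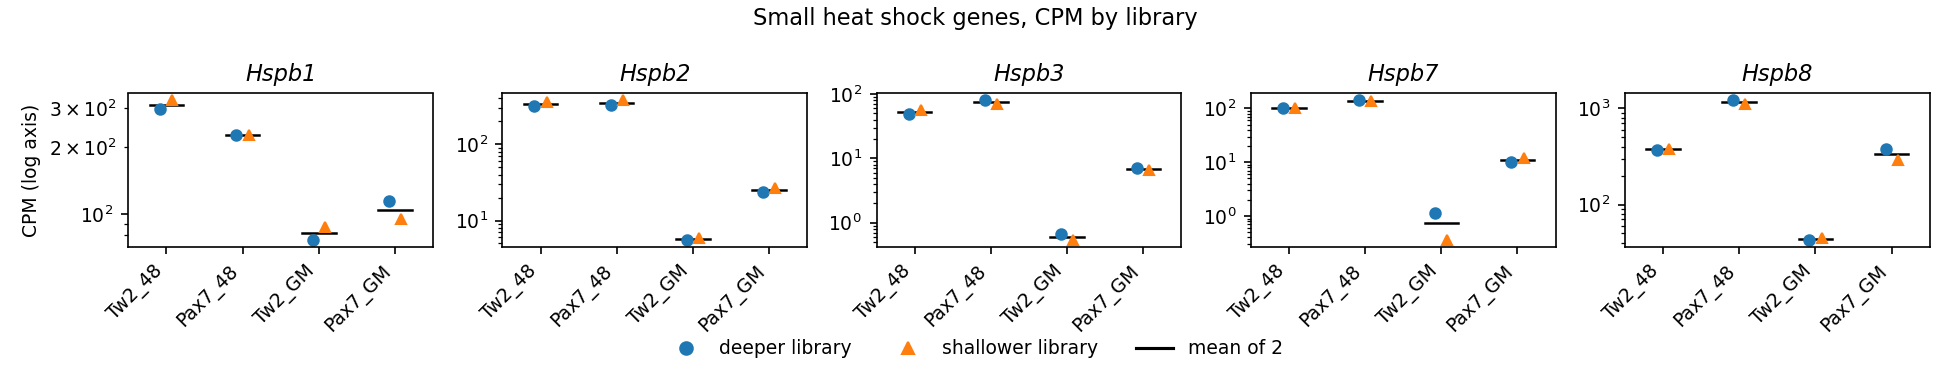
CPM (log axis) of the 5 small heat shock genes in each library, with the mean of the 2 libraries as a line, for Tw2_48, Pax7_48, Tw2_GM and Pax7_GM. Each gene is higher in every 48 library than in every GM library of its own lineage, and Hspb3 and Hspb7 lie between 0.354 and 1.15 CPM in Tw2_GM.

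Genes of muscle differentiation moved with this group. The summed level of all 6 markers (Myog, Ckm, Tnnt3, Mybph, Tmem8c and Mb) was 14898 and 14833 CPM in Tw2_48 beside 13302 and 14000 CPM in Pax7_48, against 262 and 224 CPM in Tw2_GM, with 1330 and 1088 CPM in Pax7_GM. All 6 were called lower in Tw2_GM than in Pax7_GM and all 6 higher in Tw2_48 than in Tw2_GM. In Pax7_48 against Pax7_GM 5 of the 6 were called higher. The shares over all listed genes were 26%, 35.3% and 38.8%, in that order. With the GC content and length trend removed the GM lineage values of all 6 stayed negative but moved towards 0. Ckm went from -1.04 to -0.14, Tnnt3 from -1.40 to -0.18, Myog from -1.98 to -0.80 and Mb from -5.02 to -3.74. Of 7 markers of fibro-adipogenic progenitors 3 were listed, and their sum was 10.2 and 45.9 CPM in Tw2_48, 306 and 284 CPM in Pax7_48, 11.8 and 8.06 CPM in Tw2_GM, with 466 and 440 CPM in Pax7_GM. Col1a2 made up most of the Pax7 sums (270 and 246 CPM in Pax7_48, 424 and 387 CPM in Pax7_GM). Col1a2 and Prrx1 were called lower in Tw2 cells in both cultures. Col1a1 was called in neither, and its 2 Tw2_48 libraries stood apart at 2.04 and 20.3 CPM. Pericyte markers (Rgs5, Cspg4 and Acta2, 3 of 3 listed) summed to 8639 and 8250 CPM in Tw2_48, 5150 and 5435 CPM in Pax7_48, 659 and 697 CPM in Tw2_GM, with 808 and 703 CPM in Pax7_GM. Acta2 made up nearly all of the pericyte sum at 48 (8616 and 8229 CPM in Tw2_48), while Rgs5 and Cspg4 were called lower at 48 in both lineages. Rgs5 had 0.510 and 0.213 CPM in Tw2_48 against 56.3 and 62.1 CPM in Tw2_GM, and Cspg4 22.6 and 20.2 CPM in Tw2_48 against 60.3 and 84.6 CPM in Tw2_GM. The immune marker Itgam ran from 11.9 to 22.8 CPM in the 48 libraries, against 0 CPM in Tw2_GM, with 0.542 and 0.579 CPM in Pax7_GM. Pax7 itself was not called between Tw2_GM and Pax7_GM by limma (log2 fold change -0.05, adjusted p = 0.738). That value depended on the processing: it was 0.50 with the GC content and length trend removed. Median-ratio size factors moved the median of all genes by -0.84 in this comparison. Twist2 was not analysed here. The part of these cell types in the results was not tested.

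The change at 48 was larger in Tw2 than in Pax7 cells for all 5 small heat shock genes. The difference of the 2 log2 changes was 2.36 ± 0.30 (SE) for Hspb7 (limma adjusted p = 0.00164), 1.91 ± 0.20 for Hspb2 (adjusted p = 0.000695), 1.78 ± 0.20 for Hspb3 (adjusted p = 0.000902), 1.28 ± 0.22 for Hspb8 (adjusted p = 0.00685) and 0.80 ± 0.21 for Hspb1 (adjusted p = 0.0304). Of all 53 members, 10 had a higher and 1 a lower change in Tw2 cells, where 18.7% of all listed genes were called, 9.72% higher and 9.01% lower. Hspb2, Hspb7 and Hspb8 were called under all 17 alternative settings and Hspb3 under 16 of 17, with adjusted p = 0.0574 under quantile normalization, while Hspb1 was called under 10 of 17. The members' split was 13 higher and 4 lower under quantile normalization and 7 and 2 with the GC content and length trend removed. All listed genes split 690 higher and 459 lower, and 606 and 1155, in the same order. The number of members called and its balance of higher and lower depended on which library was left out, as for all listed genes. Without the shallower Pax7_GM library, higher members no longer outnumbered lower ones among those called, and among all listed genes lower ones were more. Without the shallower Pax7_GM library the members' median difference was 0.04, against 0.07 with all libraries. Over all listed genes these medians were -0.25 and -0.22. Over the 19 cytosolic members they were -0.48 and -0.31, and over the 5 small heat shock genes 1.82 and 1.78. For Hspb2, Hspb3 and Hspb7 the group means show that the difference lay mostly in GM. These 3 genes were 4.42-fold, 11.4-fold and 14.9-fold lower in Tw2_GM than in Pax7_GM. At 48 their mean CPM was at most 1.43-fold lower in Tw2 than in Pax7 cells. Their GM values kept their sign with the GC content and length trend removed (-0.57, -1.1003 and -1.87). The 48 values depended on the scaling. Hspb3 had -2.72 in GM and -1.16 at 48 under median-ratio size factors, and -1.85 and -0.83 under quantile normalization, all called. Under median-ratio size factors 0 of the 5 small heat shock genes were higher and 4 lower in Tw2_48 than in Pax7_48. All listed genes gave 944 higher and 2634 lower there. Hspb8 was lower in Tw2 cells in both cultures, and the GM value of Hspb1 turned positive with the GC content and length trend removed.

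**Figure D3:**
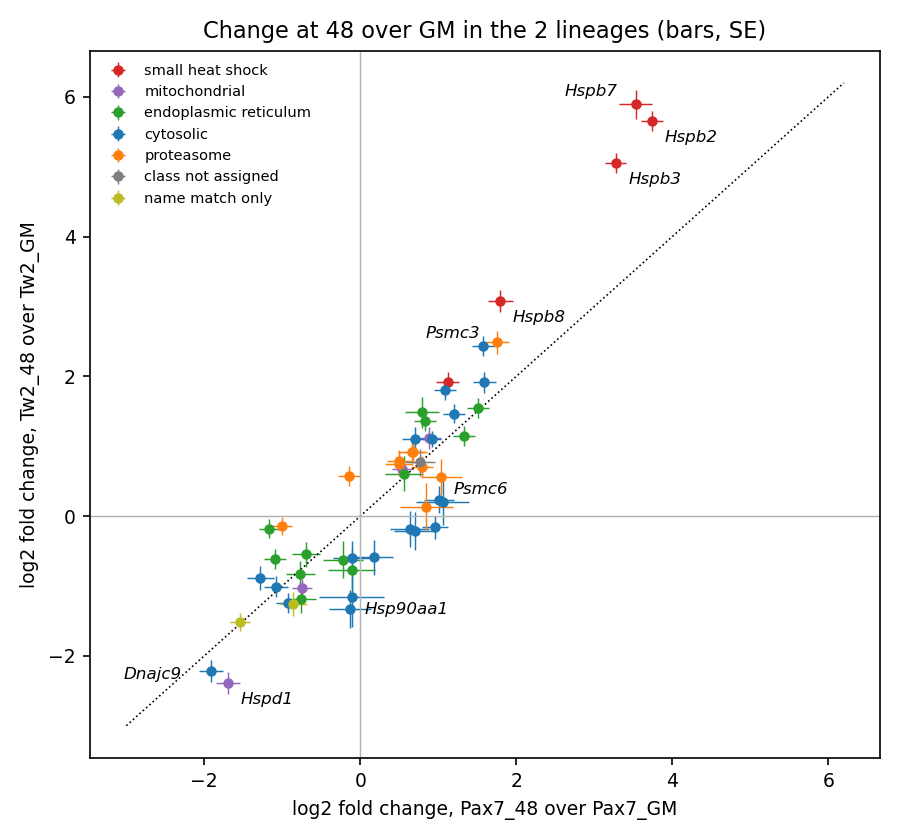
Log2 fold change of 48 over GM in Tw2 cells (y axis) against Pax7 cells (x axis) for the 53 members, coloured by class, with SE bars and a dotted line of equal change. The 5 small heat shock genes lie above the line, with Hspb7 at 5.89 against 3.53, and Hspd1 and Dnajc9 lie at the lower left.

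Most listed proteasome genes were higher at 48. Of the 10 listed members 7 were higher and 0 lower in Tw2_48 than in Tw2_GM, with a median of 0.73 on the log2 scale. In Pax7_48 against Pax7_GM 8 were higher and 1 lower, with a median of 0.68. Of all listed genes 35.3% were higher and 48.9% lower in Tw2 cells, and 38.8% and 40.5% in Pax7 cells. The count in Pax7 cells fell to 3 higher and 1 lower under quantile normalization, and in Tw2 cells it was 6 higher and 1 lower with the GC content and length trend removed. All listed genes gave 2303 higher and 2139 lower, and 1948 and 2639, in these 2 settings. Summed, they had 3323 and 3330 CPM in Tw2_48 beside 3184 and 3369 CPM in Pax7_48, against 1463 and 1536 CPM in Tw2_GM, with 1895 and 1572 CPM in Pax7_GM.

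The listed catalytic subunits of the 20S core had changes below 1 on the log2 scale. Psmb5, the chymotrypsin-like subunit, had 131 and 136 CPM in Tw2_48 beside 184 and 185 CPM in Pax7_48, against 64.2 and 76.2 CPM in Tw2_GM, with 139.5 and 95.5 CPM in Pax7_GM. Within each lineage the 48 libraries lay above the GM libraries, and the deeper Pax7_GM library lay above Tw2_48. On the log2 scale it rose by 0.92 ± 0.19 (SE) in Tw2 cells (limma adjusted p = 0.00179) and 0.67 ± 0.19 in Pax7 cells (adjusted p = 0.0107), and neither was called with the GC content and length trend removed (-0.10 in Tw2 and 0.11 in Pax7 cells), nor was the Pax7 value under quantile normalization (0.44). Psmb6, the caspase-like subunit, had 287 and 308 CPM in Tw2_48 beside 356 and 396 CPM in Pax7_48, against 168 and 184 CPM in Tw2_GM, with 312 and 228 CPM in Pax7_GM. Psmb7, the trypsin-like subunit, had 387 and 383 CPM in Tw2_48 beside 438 and 457 CPM in Pax7_48, against 197 and 211 CPM in Tw2_GM, with 307 and 253 CPM in Pax7_GM. Their log2 fold changes were 0.75 and 0.91 in Tw2 cells and 0.49 and 0.68 in Pax7 cells, all 4 called; Psmb6 in Tw2 cells was not called with the GC content and length trend removed (0.18), and neither was called in Pax7 cells under quantile normalization (0.09 and 0.27). The annotation names 2 pseudogenes for Psmb6 and 1 each for Psmb5 and Psmb7, between which reads could have been split.

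In the 19S particle, Psmc3 (chr2:91054009-91066369, +), an ATPase of its base, changed most. It had 1307 and 1354 CPM in Tw2_48 beside 1207 and 1284 CPM in Pax7_48, against 222 and 253 CPM in Tw2_GM, with 423 and 322 CPM in Pax7_GM. The mean was 5.61-fold higher in Tw2_48 than in Tw2_GM (log2 fold change 2.49 ± 0.16 SE, limma adjusted p = 1.5e-06) and 3.34-fold higher in Pax7_48 than in Pax7_GM (1.75 ± 0.16, adjusted p = 1.64e-05), with no overlap between 48 and GM. Psmc5, another ATPase of the base, had log2 changes of 0.71 ± 0.15 in Tw2 and 0.79 ± 0.15 in Pax7 cells. Psmc5 had 298 and 299 CPM in Tw2_48, 372 and 378 CPM in Pax7_48, 166 and 199.6 CPM in Tw2_GM, with 236 and 198 CPM in Pax7_GM. Exons of Psmc3 overlap those of Slc39a13, so that reads of the 2 genes may not be separable. Psmd4, the ubiquitin receptor, had 318 and 331 CPM in Tw2_48 beside 378 and 418 CPM in Pax7_48, against 181 and 193 CPM in Tw2_GM, with 319 and 249.4 CPM in Pax7_GM, and was called higher at 48 in both lineages (0.79 in Tw2 cells, and 0.49 in Pax7 cells, which became 0.08 and was not called under quantile normalization).

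The activators did not move together at 48. Psme1, the alpha subunit of PA28, an activator induced by interferon gamma, had 18.9 and 16.8 CPM in Tw2_48, 21.8 and 19.4 CPM in Pax7_48, 20.5 and 19.03 CPM in Tw2_GM, with 43.1 and 41.3 CPM in Pax7_GM. Pax7_GM stood above the other 3 groups, which were close to each other, with a log2 fold change of -1.002 ± 0.13 (SE) in Pax7_48 against Pax7_GM (limma adjusted p = 0.000148) and -0.14 ± 0.13 in Tw2_48 against Tw2_GM (adjusted p = 0.343), the Tw2 value becoming a called -0.75 with the GC content and length trend removed. Psme2b, a copy of the PA28 beta gene Psme2 with which it may share reads, had 27.9 and 26.2 CPM in Tw2_48, 39.2 and 43.6 CPM in Pax7_48, 18.5 and 17.3 CPM in Tw2_GM, with 50.1 and 41.9 CPM in Pax7_GM. Psme2b was called higher at 48 in Tw2 cells (0.57 ± 0.14, limma adjusted p = 0.0050) and not called in Pax7 cells (-0.15 ± 0.14). The Tw2 value became 0.17 and was not called with the GC content and length trend removed. The difference of changes between lineages was called for both, at 0.86 ± 0.19 for Psme1 (adjusted p = 0.0167) and 0.72 ± 0.20 for Psme2b (adjusted p = 0.0414), but for neither with the GC content and length trend removed. Psme4, which encodes PA200, had 260.3 and 219.8 CPM in Tw2_48 beside 92.2 and 98.3 CPM in Pax7_48, against 232 and 205 CPM in Tw2_GM, with 33.9 and 80.8 CPM in Pax7_GM. Psmc6, a further ATPase, had 288 and 257 CPM in Tw2_48 beside 95.3 and 91.3 CPM in Pax7_48, against 193 and 177 CPM in Tw2_GM, with 32.4 and 61.9 CPM in Pax7_GM. At 48 over GM, Psme4 and Psmc6 were called higher in Pax7 cells (0.85 and 1.04) and not in Tw2 cells (0.13 and 0.56). Psme4 in Pax7 cells was 0.76 and not called under quantile normalization. With the GC content and length trend removed both Tw2 values were called, at 0.52 and 0.61. For Psme4 and Psmc6 the lineages did not overlap in either culture, and the shallower Pax7_GM library was well above the deeper one. Both were called higher in Tw2 cells by limma, with log2 fold changes of 1.32 and 1.54 at 48 and 2.04 and 2.02 in GM, which became 0.64 and 0.81 and 1.01 and 0.77 with the GC content and length trend removed; Psme4 at 48 was 0.67 and not called under median-ratio size factors.

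**Figure D4:**
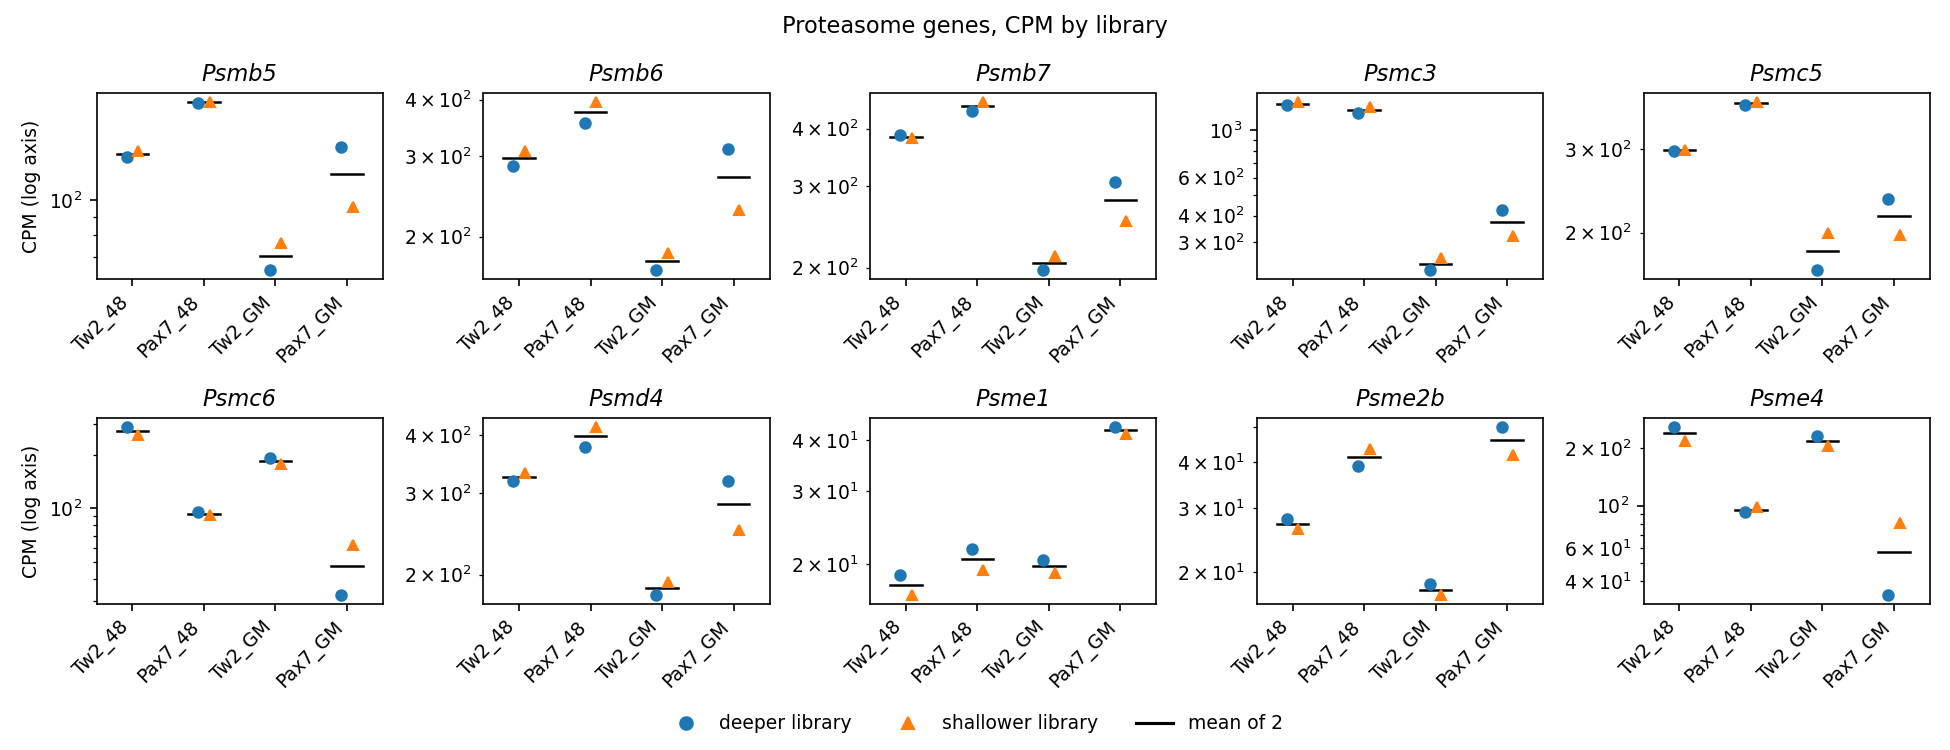
CPM (log axis) of the 10 proteasome members in each library, with the mean of the 2 libraries as a line. Most panels show both 48 groups above the GM group of their lineage, Psme1 is highest in Pax7_GM, and Psmc6 and Psme4 are higher in Tw2 than in Pax7 libraries, while the GM lineage direction of Psmb5, Psmb6, Psmc3, Psmc5 and Psmd4 flipped when the GC content and length trend was removed.

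The mitochondrial members split by function. The chaperonin pair fell at 48, while the 2 inner membrane J proteins rose. Hspd1 (Hsp60; chr1:55077835-55088243, -) had 110.5 and 102 CPM in Tw2_48 beside 54.8 and 54.2 CPM in Pax7_48, against 559 and 562 CPM in Tw2_GM, with 155 and 207 CPM in Pax7_GM. No 2 groups overlapped and Tw2_GM was highest. The mean was 5.27-fold lower in Tw2_48 than in Tw2_GM (log2 fold change -2.39 ± 0.16 SE, limma adjusted p = 1.74e-06) and 3.32-fold lower in Pax7_48 than in Pax7_GM (-1.70 ± 0.16, adjusted p = 1.81e-05). Its partner Hspe1 (Hsp10), which shares the divergent promoter shown above, had 79.4 and 88.2 CPM in Tw2_48 beside 99.3 and 107 CPM in Pax7_48, against 166 and 179 CPM in Tw2_GM, with 180.05 and 167 CPM in Pax7_GM. Hspe1 was called lower at 48 in both lineages (-1.04 ± 0.13 in Tw2 and -0.75 ± 0.13 in Pax7 cells, adjusted p = 9.17e-05 and 0.000796). Between the lineages, Hspd1 was higher in Tw2_GM than in Pax7_GM (1.64 ± 0.16, adjusted p = 9.03e-05) and in Tw2_48 than in Pax7_48 (0.95 ± 0.16, adjusted p = 0.00188), whereas the values of Hspe1 were -0.01 ± 0.13 and -0.30 ± 0.13, neither of them called. These lineage values depended on the scaling: under median-ratio size factors Hspd1 had 0.77 in GM and 0.30 at 48, the value at 48 no longer called (adjusted p = 0.09996), and under quantile normalization 1.33 and 0.55. Hspe1 was called lower in Tw2 cells under both scalings, at -0.87 and -0.55 in GM and -0.95 and -0.57 at 48. With the GC content and length trend removed Hspd1 had 1.72 and 1.05 and Hspe1 was not called. The annotation names 5 pseudogenes for Hspd1 and 6 for Hspe1, and exons of the 2 genes overlap, so their counts are uncertain.

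Dnajc15, a J protein of the mitochondrial import motor, had 37.1 and 36.4 CPM in Tw2_48 beside 52.9 and 55.8 CPM in Pax7_48, against 21.4 and 23.9 CPM in Tw2_GM, with 37.5 and 36.8 CPM in Pax7_GM. Dnajc30, which acts at the ATP synthase of the inner membrane, had 27.5 and 30.4 CPM in Tw2_48 beside 36.1 and 36.4 CPM in Pax7_48, against 14.0 and 11.6 CPM in Tw2_GM, with 21.8 and 17.0 CPM in Pax7_GM. Both were called higher at 48 in both lineages by limma, with log2 fold changes of 0.68 and 1.12 in Tw2 and 0.53 and 0.88 in Pax7 cells.

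Of the 19 cytosolic chaperones and co-chaperones 6 were higher and 7 lower in Tw2_48 than in Tw2_GM, and 11 were higher and 4 lower in Pax7_48 than in Pax7_GM. Over all listed genes 35.3% were higher and 48.9% lower in Tw2 cells, and 38.8% and 40.5% in Pax7 cells. Between the lineages 13 were higher and 1 lower in Tw2_48 than in Pax7_48, and 12 were higher and 4 lower in Tw2_GM than in Pax7_GM, where 43.3% and 48.7% of all listed genes were higher and 22.1% and 26% lower. Under median-ratio size factors the lineage splits were 7 higher and 6 lower at 48 and 9 and 7 in GM. With the GC content and length trend removed they were 13 and 0 and 15 and 3. All listed genes gave 944 higher and 2634 lower at 48 and 1392 and 2940 in GM under those size factors. With the trend removed they gave 2552 and 715 at 48 and 3422 and 806 in GM. Their summed level was 2858 and 2657 CPM in Tw2_48 beside 1953 and 1843 CPM in Pax7_48, and 2610 and 2528 CPM in Tw2_GM, with 1094 and 1320 CPM in Pax7_GM.

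Hsp90aa1 (chr12:110690605-110702728, -), the stress-inducible cytosolic Hsp90, had the highest log2 fold change of Tw2 over Pax7 cells among the members, in both cultures. It had 202 and 180.3 CPM in Tw2_48 against 40.3 and 34.4 CPM in Pax7_48, and 454 and 404 CPM in Tw2_GM against 22.9 and 70.2 CPM in Pax7_GM. The lineages did not overlap in either culture, although the 2 Pax7_GM libraries stood far apart. The mean was 5.11-fold higher in Tw2_48 than in Pax7_48 (log2 fold change 2.32 ± 0.42 SE, limma adjusted p = 0.00242) and 9.21-fold higher in Tw2_GM than in Pax7_GM (3.38 ± 0.42, adjusted p = 0.00021), and with the GC content and length trend removed the values were 1.93 and 2.70. Ahsa2, of the family that activates the Hsp90 ATPase, was higher in Tw2 cells by 1.096 ± 0.24 at 48 (0.44 and not called under median-ratio size factors) and 1.58 ± 0.24 in GM. At 48 against GM, Hsp90aa1 was lower in Tw2 cells (-1.16 ± 0.42, adjusted p = 0.0291; -0.70 and not called under median-ratio size factors and with the GC content and length trend removed) and not called in Pax7 cells (-0.11 ± 0.42), a value that became 0.68 without the shallower Pax7_GM library.

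Dnaja1, a J protein of cytosolic Hsp70, had 48.6 and 43.7 CPM in Tw2_48 against 13.8 and 13.6 CPM in Pax7_48, and 51.8 and 53.4 CPM in Tw2_GM against 5.96 and 11.96 CPM in Pax7_GM. It was 3.37-fold higher in Tw2_48 than in Pax7_48 and 5.87-fold higher in Tw2_GM than in Pax7_GM (log2 fold changes 1.68 ± 0.26 SE and 2.495 ± 0.26, limma adjusted p = 0.00142 and 0.000113). Its relative Dnaja4 went the other way, with 43.5 and 43.3 CPM in Tw2_48 against 68.3 and 63.8 CPM in Pax7_48, and 11.01 and 12.5 CPM in Tw2_GM against 32.9 and 28.4 CPM in Pax7_GM. Dnaja4 was lower in Tw2 cells in both cultures (-0.59 ± 0.14 at 48, which became -0.25 and was not called with the GC content and length trend removed, and -1.31 ± 0.14 in GM) and higher at 48 in both lineages (1.80 ± 0.14 in Tw2 and 1.09 ± 0.14 in Pax7 cells, adjusted p = 3.85e-06 and 0.000108). In CPM the libraries of the 2 lineages did not overlap for either gene.

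The class B J proteins Dnajb2 and Dnajb5 rose with Dnaja4 at 48. Dnajb5 had 106 and 98.8 CPM in Tw2_48 beside 108 and 100.3 CPM in Pax7_48, against 17.8 and 18.3 CPM in Tw2_GM, with 38.3 and 30.5 CPM in Pax7_GM. On the log2 scale it rose by 2.44 ± 0.15 (SE) in Tw2 cells (limma adjusted p = 9.38e-07) and 1.58 ± 0.15 in Pax7 cells (adjusted p = 1.71e-05), with lineages that overlapped at 48 and stood apart in GM. Dnajb2, which is abundant in neurons and in muscle, had 144 and 133 CPM in Tw2_48 beside 155 and 154 CPM in Pax7_48, against 37.1 and 34.9 CPM in Tw2_GM, with 56.6 and 45.3 CPM in Pax7_GM. Its 48 libraries lay above all GM libraries (1.91 ± 0.15 in Tw2 and 1.59 ± 0.15 in Pax7 cells, both called). Dnajb4 behaved unlike them, with 43.7 and 45.7 CPM in Tw2_48, 21.4 and 17.7 CPM in Pax7_48, 41.2 and 36.1 CPM in Tw2_GM, with 5.42 and 14.1 CPM in Pax7_GM. It was called higher in Tw2 cells in both cultures (2.01 in GM, and 1.16 at 48, which was not called under median-ratio size factors, at 0.52, or with the GC content and length trend removed, at 0.41) and at 48 over GM was called in Pax7 cells (1.06) and not in Tw2 cells (0.21, a called 0.65 with the GC content and length trend removed), while the difference of those changes was not called (-0.85 ± 0.48, adjusted p = 0.224).

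Among the Hsp70 relatives stood Hspa4l, a nucleotide exchange factor of the Hsp110 family. In the main fit it was the only member with a called difference of changes below 0. Under quantile normalization 4 members were, beside 459 of all listed genes. Hspa4l had 70.7 and 68.3 CPM in Tw2_48, 30.5 and 34.3 CPM in Pax7_48, 79.7 and 76.0 CPM in Tw2_GM, with 13.7 and 19.1 CPM in Pax7_GM. Tw2 cells were above Pax7 cells in both cultures (1.08 at 48, which turned to -0.08 with the GC content and length trend removed, and 2.20 in GM), and the 48 change was -0.16 ± 0.17 in Tw2 and 0.96 ± 0.17 in Pax7 cells (difference -1.12 ± 0.24, limma adjusted p = 0.0158; -0.57 and not called with the GC content and length trend removed). Hspa12a and Hspa14, a distant Hsp70 relative and a ribosome-bound Hsp70, were lower at 48 in both lineages (-0.89 and -1.01 in Tw2 and -1.28 and -1.08 in Pax7 cells).

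The nucleotide exchange factors Bag1 and Bag4 moved apart. Bag1 had 393 and 394 CPM in Tw2_48 beside 416 and 413 CPM in Pax7_48, against 134 and 150.1 CPM in Tw2_GM, with 197 and 163 CPM in Pax7_GM. Its log2 changes at 48 were 1.47 ± 0.14 in Tw2 and 1.21 ± 0.14 in Pax7 cells. Bag4 had 16.5 and 17.5 CPM in Tw2_48 beside 11.5 and 11.8 CPM in Pax7_48, against 43.0 and 40.1 CPM in Tw2_GM, with 20.5 and 26.0 CPM in Pax7_GM, and its log2 changes were -1.24 ± 0.15 in Tw2 and -0.93 ± 0.15 in Pax7 cells. All 4 changes were called, with the largest adjusted p = 0.000422 (limma), and 48 did not overlap GM in either lineage for either gene. Cct8, the theta subunit of TRiC and the only TRiC subunit listed, had 583 and 523 CPM in Tw2_48 beside 221 and 204 CPM in Pax7_48, against 651.5 and 634 CPM in Tw2_GM, with 92.5 and 182 CPM in Pax7_GM. It was called higher in Tw2 cells in both cultures, by 1.37 ± 0.27 at 48 and 2.30 ± 0.27 in GM.

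Other J proteins covered both directions. Dnajc9, a J protein that acts as a histone chaperone and was placed with the cytosolic members, was the one that fell most at 48. It had 23.4 and 18.4 CPM in Tw2_48 beside 24.9 and 21.6 CPM in Pax7_48, against 95.6 and 105 CPM in Tw2_GM, with 87.1 and 93.2 CPM in Pax7_GM. Its change at 48 was -2.22 ± 0.16 (SE) in Tw2 and -1.91 ± 0.16 in Pax7 cells on the log2 scale (limma adjusted p = 2.49e-06 and 8.22e-06). The lineages overlapped at 48 and differed by 0.15 in GM, neither called, but Dnajc9 was called lower in Tw2 cells under median-ratio size factors (-0.79 at 48 and -0.71 in GM) and higher in GM with the GC content and length trend removed (0.48). Dnajc2, a ribosome-bound J protein, had 35.8 and 35.9 CPM in Tw2_48, 14.7 and 14.4 CPM in Pax7_48, 97.5 and 85.9 CPM in Tw2_GM, with 11.2 and 22.6 CPM in Pax7_GM. Tw2_GM was far above the other groups for this gene, with a called change at 48 in Tw2 cells (-1.33 ± 0.27, limma adjusted p = 0.00157). Dnajc5, the cysteine string protein of vesicles, and Dnajc7, a J protein with tetratricopeptide repeats, were called higher at 48 in both lineages (1.1015 and 1.1005 in Tw2, 0.91 and 0.70 in Pax7 cells). The endosomal Dnajc13 and the ribosome biogenesis factor Dnajc21 were higher in Tw2 than in Pax7 cells in both cultures (1.24 and 0.86 at 48, 2.00 and 1.63 in GM), but Dnajc21 at 48 was 0.22 and not called under median-ratio size factors.

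Of the 12 endoplasmic reticulum members 5 were higher and 5 lower in Tw2_48 than in Tw2_GM, and 4 were higher and 5 lower in Pax7_48 than in Pax7_GM. The shares over all listed genes were 35.3% higher and 48.9% lower in Tw2 cells, and 38.8% and 40.5% in Pax7 cells. Between the lineages 9 were higher and 0 lower in Tw2_48 than in Pax7_48 and 5 were higher and 0 lower in Tw2_GM than in Pax7_GM, beside 43.3% higher and 22.1% lower at 48 and 48.7% higher and 26% lower in GM over all listed genes. Under median-ratio size factors these lineage counts were 5 and 2 at 48 and 2 and 5 in GM, beside 944 and 2634, and 1392 and 2940, over all listed genes. Hsp90b1, the Hsp90 of this compartment, had 804 and 683 CPM in Tw2_48 against 199.5 and 181 CPM in Pax7_48, and 1182 and 1100.5 CPM in Tw2_GM against 163 and 303 CPM in Pax7_GM. It was 3.91-fold higher in Tw2_48 than in Pax7_48 (log2 fold change 1.96 ± 0.26 SE, limma adjusted p = 0.000888) and 4.90-fold higher in Tw2_GM than in Pax7_GM (2.36 ± 0.26, adjusted p = 0.000148), and was not called between 48 and GM in either lineage (-0.62, a called -1.03 under quantile normalization, in Tw2 and -0.22 in Pax7 cells). Hspa13, a microsome-associated Hsp70 relative, gave 1.78 ± 0.30 and 2.44 ± 0.30 for the same lineage comparisons.

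Several J proteins of this compartment rose at 48. Dnajb9, a J protein induced by the unfolded protein response, had 74.3 and 63.2 CPM in Tw2_48 beside 26.3 and 31.8 CPM in Pax7_48, against 22.7 and 25.1 CPM in Tw2_GM, with 12.9 and 20.45 CPM in Pax7_GM. Dnajb11, which works with BiP, had 288 and 254 CPM in Tw2_48 beside 169 and 148 CPM in Pax7_48, against 100.05 and 109.6 CPM in Tw2_GM, with 88.2 and 89.1 CPM in Pax7_GM. Tw2_48 was highest and 48 was above GM in each lineage for both genes, with log2 fold changes of 1.48 and 1.36 in Tw2 and 0.80 and 0.83 in Pax7 cells, all called by limma. The membrane J proteins Dnajc16 and Dnajc18 rose in both lineages as well (1.15 and 1.55 in Tw2, 1.33 and 1.51 in Pax7 cells).

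The disulfide isomerases Pdia3 and Pdia4 were lower at 48, to an extent that depended on the scaling. Pdia3 (ERp57) had 572 and 505 CPM in Tw2_48 beside 285 and 248.6 CPM in Pax7_48, against 753 and 822 CPM in Tw2_GM, with 368 and 505 CPM in Pax7_GM. Pdia4 (ERp72) had 180.4 and 165 CPM in Tw2_48 beside 142 and 114 CPM in Pax7_48, against 253 and 276 CPM in Tw2_GM, with 272 and 274 CPM in Pax7_GM. Both were called lower at 48 in both lineages (-0.55 and -0.61 in Tw2, -0.69 and -1.09 in Pax7 cells), but under median-ratio size factors neither was called in Tw2 cells (-0.09 and -0.15). With the GC content and length trend removed Pdia3 was called in neither lineage (-0.19 in Tw2 and -0.38 in Pax7 cells). Pdia5 had 11.6 and 10.5 CPM in Tw2_48, 4.23 and 3.54 CPM in Pax7_48, 12.7 and 12.7 CPM in Tw2_GM, with 9.48 and 10.4 CPM in Pax7_GM. Pdia5 was lower in Pax7_48 than in Pax7_GM (-1.17 ± 0.13 SE, limma adjusted p = 6.45e-05) and not called in Tw2 cells (-0.18 ± 0.13, which became 0.24 under median-ratio size factors and a called -0.65 with the GC content and length trend removed), and the difference of changes was 0.99 ± 0.19 (adjusted p = 0.0103; 0.63 and not called with the GC content and length trend removed). Dnajc10, a reductase of this compartment, and Dnajc1 were lower at 48 in both lineages (-1.19 and -0.83 in Tw2, -0.76 and -0.77 in Pax7 cells; Dnajc1 in Tw2 cells was -0.38 and not called under median-ratio size factors). Dnajc3, which inhibits the kinase PERK, was higher in Tw2 than in Pax7 cells by 1.35 ± 0.25 at 48 and 1.30 ± 0.25 in GM, both called; the GM call was lost under median-ratio size factors (0.45) and with the GC content and length trend removed (0.27).

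The lineage differences of the members went with base composition. Over the 53 genes, the Spearman correlation of GC content (of the longest annotated transcript) with the log2 fold change was -0.63 for Tw2_48 against Pax7_48 and -0.78 for Tw2_GM against Pax7_GM, beside -0.61 and -0.69 over all 5431 listed genes with a GC value. Of the 18 GC-poorest members, at up to 44.7% GC, 15 were higher and 2 lower in Tw2_GM than in Pax7_GM, with a median of 2.01. Of the 18 GC-richest, above 51.3% GC, 0 were higher and 13 lower, with a median of -0.59. All listed genes went the same way at these limits. Of the 1547 GC-poorest, 1362 were higher and 72 lower, with a median of 1.64. Of the 2032 GC-richest, 261 were higher and 981 lower, with a median of -0.36. The difference of changes ran with GC content too, at 0.73 over the members and 0.47 over all listed genes. For that difference 8 of the 18 GC-richest members were called higher and 0 lower, and of the 18 GC-poorest 0 and 1. Over all listed genes the counts were 338 and 136 of the 2032 GC-richest, and 46 and 146 of the 1547 GC-poorest. The ratio of the shallower to the deeper Pax7_GM library ran with GC content as well, at -0.73 over the members, from a log2 ratio of 1.58 for Hsp90aa1 to -0.60 for Dnajc4. These values share libraries and base composition and are given as a description. The part of base composition in the lineage differences and in the difference of changes was not tested.

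**Figure D5:**
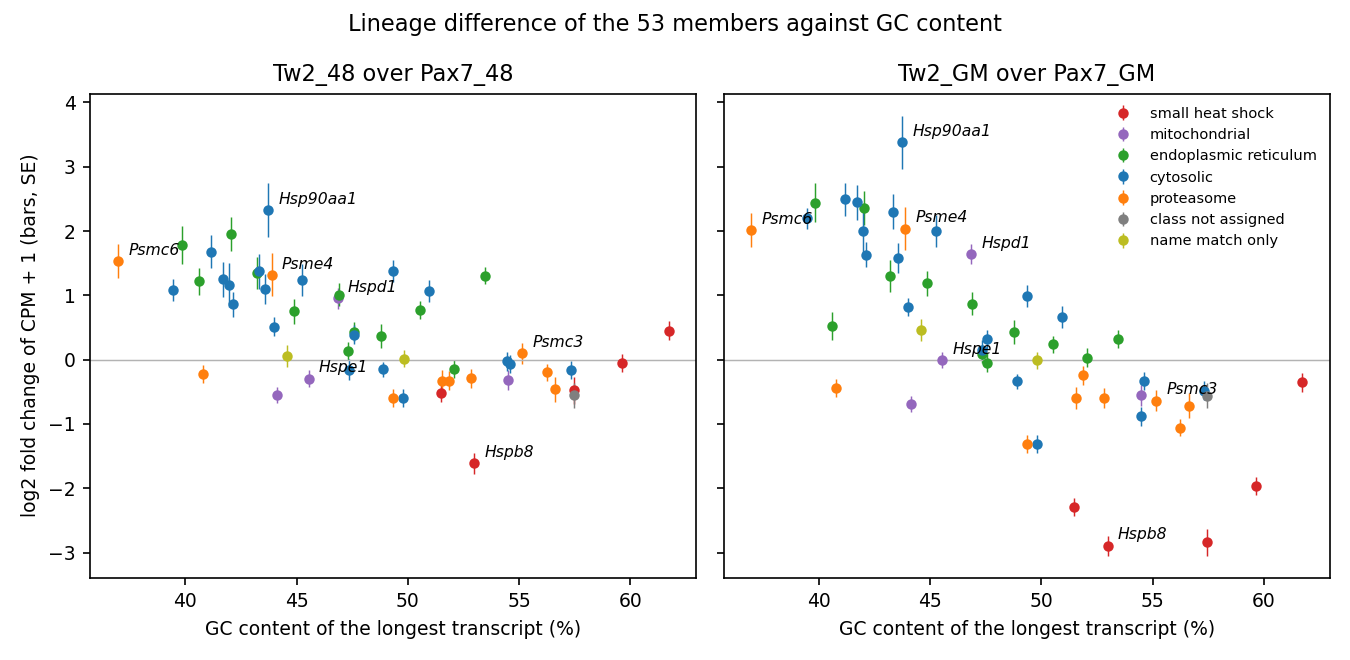
Log2 fold change of CPM + 1 (SE bars) between Tw2 and Pax7 cells against GC content of the longest transcript (%) for the 53 members, at 48 (left) and in GM (right), coloured by class. GC-poor members such as Psmc6, at 37.0%, lie above 0 and GC-rich small heat shock genes lie below 0 in GM, of which Hspb1 turned positive when the GC content and length trend was removed.

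Partners of the same pathways, from lists chosen with earlier results known, were mixed. Of 19 heat shock factors and Hsp90 or Hsp70 partners 11 were listed, with 5 higher and 4 lower in Tw2_48 than in Tw2_GM and 7 higher and 3 lower in Pax7_48 than in Pax7_GM. In these comparisons 35.3% of all listed genes were higher and 48.9% lower in Tw2 cells, and 38.8% and 40.5% in Pax7 cells. Unc45b, the myosin chaperone of striated muscle, had 611 and 624 CPM in Tw2_48 beside 570 and 562 CPM in Pax7_48, against 5.67 and 3.81 CPM in Tw2_GM, with 35.5 and 29.9 CPM in Pax7_GM. Cryab, the small heat shock protein alpha B crystallin, had 1284 and 1366 CPM in Tw2_48 beside 1269 and 1258 CPM in Pax7_48, against 75.3 and 89.5 CPM in Tw2_GM, with 232 and 184 CPM in Pax7_GM. The lowest level of both was in Tw2_GM, but the GM lineage difference of Cryab, -1.32 by limma, became -0.06 with the GC content and length trend removed, and that of Unc45b, -2.57, became -1.86. At 48 over GM they had log2 fold changes of 6.77 and 3.995 in Tw2 and 4.08 and 2.61 in Pax7 cells. Fkbp5, an Hsp90 co-chaperone and a glucocorticoid target, fell at 48 in both lineages (-3.03 and -1.89), as did Fkbp4 (-1.67 and -1.21).

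Of 15 genes of endoplasmic reticulum folding and the unfolded protein response 6 were listed, with 3 higher and 2 lower at 48 in each lineage. Of 17 genes of proteasome regulation and ubiquitin 6 were listed, with 2 higher and 4 lower in Tw2_48 than in Tw2_GM and 2 higher and 3 lower in Pax7_48 than in Pax7_GM. For both lists the shares over all listed genes were 35.3% higher and 48.9% lower in Tw2 cells, and 38.8% and 40.5% in Pax7 cells. Trim63, the muscle ubiquitin ligase MuRF1, rose by 5.65 in Tw2 and 3.71 in Pax7 cells on the log2 scale, and Nfe2l1, a transcription factor of proteasome genes, by 1.08 and 1.43. Its relative Nfe2l2 fell at 48 (-1.51 and -1.13). Of 10 mitochondrial folding and proteolysis genes 2 were listed, Grpel1 and Yme1l1, and of 6 TRiC and prefoldin genes 2, Pfdn5 and Vbp1. Grpel1, the exchange factor of mitochondrial Hsp70, was higher at 48 in both lineages (0.79 and 0.64), in contrast to Hspd1 and Hspe1.

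The 3 members without a compartment completed the set. Dnajc4 was higher at 48 in both lineages (0.77 and 0.77) and lower in Tw2 than in Pax7 cells in both cultures (-0.56 and -0.56), values that became -0.17 in Tw2 and 0.27 in Pax7 cells, and 0.33 and 0.77, with the GC content and length trend removed. It had 14.4 and 15.0 CPM in Tw2_48, 21.4 and 22.8 CPM in Pax7_48, 8.54 and 7.88 CPM in Tw2_GM, with 15.7 and 10.0 CPM in Pax7_GM. Psmc3ip, a meiotic recombination factor, and Hspbap1, which binds Hspb1, were lower at 48 in both lineages (-1.52 and -1.26 in Tw2, -1.54 and -0.86 in Pax7 cells), by limma.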

How the data were processed

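Total RNA for the 8 libraries was isolated with Trizol, per the labels' protocols. TopHat2 2.0.0, DESeq2 1.6.3 and the mouse build GRCm38 (mm10) are named in the processing notes of the submitters; the counting tool and strand handling are not given in the sources used here. The deposited table holds, for each gene, the authors' mean CPM of every group, and log2 fold changes with Tw2_GM as base, equal to log2 of (mean + 1) ratios. Every listed gene differed at least 2-fold from Tw2_GM in some group and had 10 CPM or more in at least 4 libraries.

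Each mean of 2 libraries was split into whole reads: 5452 of 5457 genes, and all 53 members, had a single solution within 1.1 times the rounding error. The solution does not carry the replicate numbers of the titles. A count of 0 allows up to 3 reads, which is 0.218 to 0.579 CPM (counting error only). The values log2(CPM + 1) were fitted in limma 3.58.1 (R 4.3.3), taking 1 mean for each of the 4 groups, with moderated variances and no variance trend (residual degrees of freedom 4). P-values were adjusted by the Benjamini-Hochberg method over 5452 genes in each of 5 comparisons. Requiring a mean of at least 1 CPM dropped 0 genes. Both steps were tested on simulated data. The SE pools the spread over all groups. Comparisons that share a group are not independent. GC content and length came from the longest GENCODE M21 transcript of 5431 genes (99.6%). Alternatives were other pseudocounts, filters, scalings, removal of the GC content and length trend, voom weights, a variance trend, only the groups compared, and leaving out each library.

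Classes follow textbook location. Members of classes of up to 8 genes were all named; in larger classes, the largest changes and highest levels were. The members and lists were chosen with earlier results of these data known. Promoter windows are from RefSeq (GRCm38.p6) and were found for 43 of the 53 members by symbol. Marker lists for endothelium, glia and the Twist2 lineage had 0 genes listed. The adipocyte marker listed (1 of 3) had 117 and 114 CPM in Tw2_48, 130.03 and 109.7 CPM in Pax7_48, 43.6 and 35.4 CPM in Tw2_GM, with 238 and 293 CPM in Pax7_GM. Satellite cell markers (3 of 5) summed to 4384 and 4382 CPM in Tw2_48, 5814 and 6115 CPM in Pax7_48, 1326.5 and 1375 CPM in Tw2_GM, with 1885 and 1460 CPM in Pax7_GM, mostly from Des and Cdh15. Pax7 itself was lower at 48 in both lineages (log2 fold change -3.02 in Tw2 and -3.42 in Pax7 cells).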

Additional observations from a re-analysis of the deposited data

Results flagged for a closer look

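For 11 members the change of 48 over GM differed between the lineages by limma's test of the difference itself (Tw2 change minus Pax7 change, log2). The difference was positive for Hspb7 (2.36), Hspb2 (1.91), Hspb3 (1.78), Hspb8 (1.28), Pdia5 (0.99), Psme1 (0.86), Dnajb5 (0.86), Hspb1 (0.80), Dnaja4 (0.72) and Psme2b (0.72), and negative for Hspa4l (-1.12). Over the 17 alternative settings, Dnajb5 was called in 11 (0.58 to 1.12), Dnaja4 in 11 (0.54 to 0.89), Psme1 in 11 (0.47 to 1.09), Psme2b in 10 (0.48 to 0.93), Hspb1 in 10 (0.42 to 1.19) and Hspa4l in 10 (-1.34 to -0.57), and Pdia5 in 11 of 16 (0.61 to 1.26). Hspb2 (1.44 to 2.08), Hspb7 (1.04 to 3.51) and Hspb8 (0.93 to 2.08) were called in all 17, and Hspb3 (0.60 to 2.91) in 16. None of the 11 changed sign in those settings.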

How the results depend on the processing

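The number of members called kept within 1.5 times its main value in 4 of the 5 comparisons under the alternatives run: leaving out 1 library gave 37 to 45 calls in Tw2_48 against Tw2_GM, 37 to 49 in Pax7_48 against Pax7_GM, 23 to 40 in Tw2_48 against Pax7_48 and 29 to 45 in Tw2_GM against Pax7_GM. For the difference of changes the 11 calls became 17 under quantile normalization and 17 with voom weights, and 4 to 32 without 1 library: 32 without the shallower and 17 without the deeper Pax7_GM library, 4 without either Tw2_GM library, 4 and 5 without a Tw2_48 library, and 6 and 4 without a Pax7_48 library. In Tw2_48 against Tw2_GM the split was 28 higher and 10 lower under median-ratio size factors.

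Single members whose value changed sign and was called either before or after the change are given here; sign changes between uncalled values are not, and the cause was not tested. With the GC content and length trend removed, Tw2_GM against Pax7_GM gave Dnajb2 0.44, Psmb6 0.54, Psmc3ip 0.83, Psmc5 0.79, Dnajb9 -0.46, Psmb5 0.67, Psme1 0.041, Hspbap1 -0.33, Dnajc4 0.77, Psmc3 0.47, Psmd4 0.36, Bag1 0.87, Dnajc30 0.57, Hspb1 0.90 and Bag4 -0.042. With the GC content and length trend removed, Tw2_48 against Pax7_48 gave Dnajb2 0.41, Psme2b 0.083, Psmb6 0.45, Psmc5 0.38, Hspb3 0.33, Psmb5 0.46, Psme1 0.51, Dnajc4 0.33, Hspa4l -0.080, Psmd4 0.33, Bag1 0.72, Dnajb5 0.29, Dnajc30 0.42, Bag4 -0.032 and Hspb2 0.90. With the GC content and length trend removed, Tw2_48 against Tw2_GM gave Psmb5 -0.10 and Dnajc4 -0.17. Under median-ratio size factors, Tw2_GM against Pax7_GM gave Dnajc7 -0.20, Dnajc9 -0.71, Dnajb11 -0.63, Pdia5 -0.48, Hspbap1 -0.37, Dnajc18 -0.75, Hspa14 -0.55, Pdia3 -0.0048, Dnajc16 -0.81 and Bag4 -0.026. Under median-ratio size factors, Tw2_48 against Pax7_48 gave Psmc3ip -0.54, Hspbap1 -0.54, Dnajc18 -0.52, Hspa14 -0.26, Psmc3 -0.56, Hspb1 -0.20, Pdia4 -0.22 and Bag4 -0.11. Under quantile normalization, Tw2_GM against Pax7_GM gave Dnajc9 -0.41, Dnajc18 -0.51 and Dnajc16 -0.56. Under quantile normalization, Tw2_48 against Pax7_48 gave Hspa14 -0.033. Without the shallower Pax7_GM library, Pax7_48 against Pax7_GM gave Hsp90aa1 0.68, Hspa13 0.43 and Dnajc2 0.34. Over all single-library omissions the lowest values of these 3 were Hsp90aa1 -0.90, Hspa13 -0.64 and Dnajc2 -0.60, without the deeper Pax7_GM library. No paired analysis was possible because the deposited means carry no replicate numbers.

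With 2 libraries a group and 4 residual degrees of freedom, median standard errors were 0.164, and 0.232 for the difference of changes, so small differences were not detectable. Levels of a few reads, as for Hspb3 and Hspb7 in Tw2_GM, are the least precise. Leaving a group with 1 library assumes that it varied like the other groups.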
